A study of Saccharomyces cerevisiae with 18 samples.

Results

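Transcript levels of the amylase strain AAC were compared with those of the amylase strain AAP in aerobic batch culture of Saccharomyces cerevisiae. The arrays were taken by sample title: 3 arrays of AAC and 3 of AAP, so 6 of the 18 arrays of the series. The host of both strains was the laboratory strain CEN.PK 530-1C, which lacks its own TPI1 gene for triose phosphate isomerase, and both carried a 2 μm plasmid with POT1, the triose phosphate isomerase gene tpi1 of Schizosaccharomyces pombe. In AAC, labelled as the high producer, the TPI1 promoter drove an amylase fused to the alpha factor leader, and in AAP, labelled as producing less, the same fusion stood behind the TEF1 promoter. The other 12 arrays came from AAC and AAP grown without oxygen and from NC, which carried the plasmid with the TPI1 promoter and no amylase, under both conditions. Cultures were held at 30 °C, stirred at 600 rpm, and harvested near an optical density of 1. Arrays of 1 group are biological replicates by their labels, which do not say how many transformants they represent. AAC and AAP differ in promoter as well as in the labelled amylase output, and the effects of these cannot be told apart.

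Triose phosphate isomerase interconverts the 2 triose phosphates of glycolysis, and a yeast cell without it cannot grow well on glucose. A plasmid that carries the only isomerase gene of the cell is therefore kept without other selection. The alpha factor leader sends a protein into the endoplasmic reticulum, where chaperones such as Kar2 and the disulfide isomerase Pdi1 fold it, and from there through the Golgi to the medium. The TPI1 and TEF1 promoters are both strong promoters of growing cells, the first belonging to a glycolytic enzyme and the second to translation elongation factor 1 alpha.

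The array labelled AAP aerobic replicate 3 stood apart from the other AAP arrays, and results are given with and without it. Its Pearson correlation across the tested probe sets was 0.992 to 0.995 with the AAC aerobic arrays and 0.977 to 0.979 with AAP aerobic replicates 1 and 2. AAP aerobic replicates 1 and 2 correlated with each other at 0.997 and with the AAC aerobic arrays at 0.979 to 0.987. The array is no copy of the AAC array it correlates with most, AAC replicate 3, since no value was identical and the largest difference was 2.23 log2 units. Without it, 1546 probe sets differed between AAC and AAP, and at 1373 of these (88.8%) its value lay nearer to the AAC mean than to the mean of AAP replicates 1 and 2. Its median position was 1.05 of the way from AAP replicates 1 and 2 to AAC, with quartiles of 0.773 and 1.36. The signal of probes at the 3′ end of the actin transcript ACT1 over that of probes at its 5′ end is a sign of RNA quality. It was 0.584, 0.670 and 0.916 log2 units in AAC and 0.518, 0.529 and 0.994 in AAP, so replicate 3 was highest in both strains. The same held for WBP1, at 1.06, 1.17 and 1.43 in AAC and 1.05, 1.09 and 1.61 in AAP. For TDH1 it held in AAC (0.128, 0.343 and 0.396) and not in AAP (0.319, 0.427 and 0.417). Array medians over the 5498 tested probe sets were 7.08 to 7.11 on the 6 arrays, with 90.6% to 91.9% of them above background. Whether that array holds the RNA its label names was not tested by any other measurement.

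**Figure D1:**
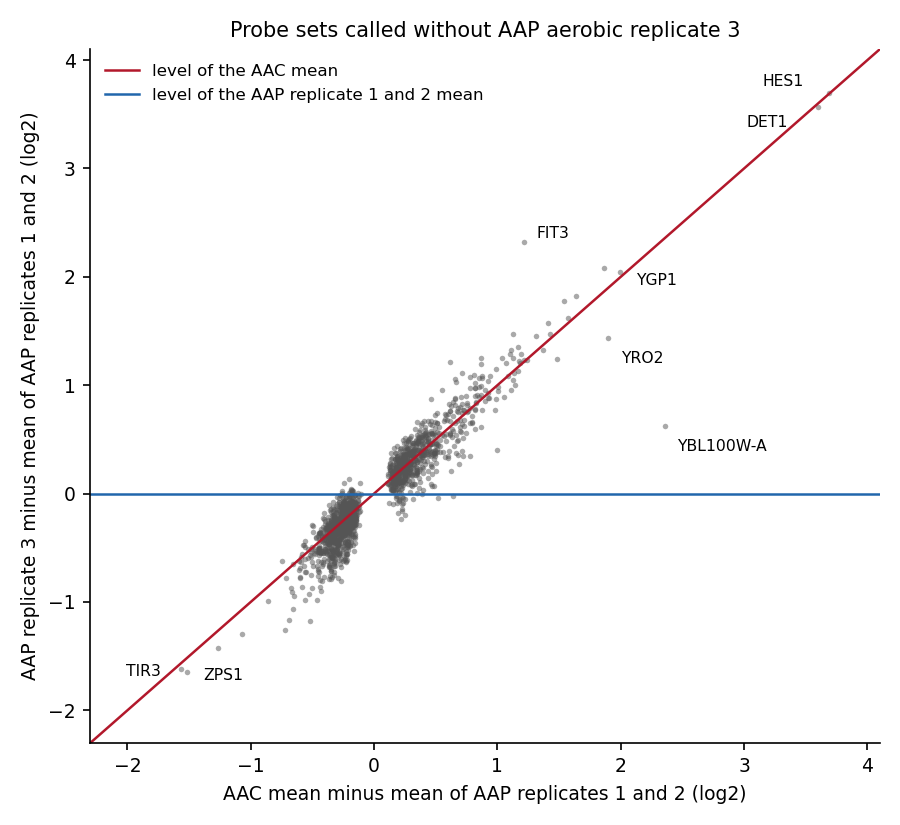
Each point is 1 of the 1546 probe sets called between AAC and AAP when the array labelled AAP aerobic replicate 3 is left out. The x axis is the AAC mean minus the mean of AAP replicates 1 and 2, and the y axis is AAP replicate 3 minus the mean of AAP replicates 1 and 2, both in log2 units. Points on the red line have the AAC level on that array and points on the blue line the level of the other AAP arrays, and 1373 of 1546 lie nearer the red line, while YBL100W-A and YRO2 lie below it.

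The plasmid-borne isomerase gene and DET1, the neighbour of TPI1, separated AAC from AAP replicates 1 and 2. The S. pombe tpi1 probe set read 9.32, 9.41 and 8.97 log2 units in AAC, against 12.42, 12.38 and 9.24 in AAP. AAP replicate 3 lay within the range of AAC, and the other AAP arrays were about 3 units above it. AAC averaged 9.23 ± 0.229 and AAP 11.35 ± 1.82 (SD, n = 3 each), a difference of -2.11 (two-sided exact permutation test, p = 0.3, where 3 against 3 arrays cannot go below 0.1). Against AAP replicates 1 and 2 alone the difference was -3.17 (exact permutation test, p = 0.2 with the smaller tail doubled, the smallest value that this way of counting gives here). In anaerobic cultures, whose labels the signal separated fully, AAC averaged 9.92 ± 0.509 and AAP 12.45 ± 0.0311 (SD, n = 3 each, exact permutation test, p = 0.1), and the strain without amylase, NC, read 6.24 ± 0.0991 (SD, n = 3) in aerobic culture. The host's own TPI1 was at background on all 6 arrays, at 5.30, 5.41 and 5.30 in AAC and 5.46, 5.29 and 5.52 in AAP. The level is an average over the culture, and more signal in each cell cannot be told apart from more cells that carry it.

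DET1 (YDR051C), which encodes an acid phosphatase, lies next to TPI1 (YDR050C) in gene order on the same strand, with the TPI1 promoter between them. It read 11.19, 11.33 and 11.40 log2 units in AAC, against 7.80, 7.61 and 11.28 in AAP. The AAC arrays and AAP replicate 3 were again alike, and AAP replicates 1 and 2 were far below. The fold was 12.1 without AAP replicate 3 (log2 difference 3.60 ± 0.08, SE, limma adjusted p = 1.4e-13) and the log2 difference 2.41 with it (adjusted p = 0.045). NC, which like AAC carries the TPI1 promoter on its plasmid, read 11.98 on average. Whether plasmid sequence contributes to the DET1 signal was not tested. On the other side of TPI1, VMS1, a factor of mitochondrial protein quality control, read 7.52, 7.45 and 7.53 in AAC and 7.51, 7.49 and 7.52 in AAP. Of the genes beside the TEF1 and TEF2 loci, MRL1, GRS2 and MUD1 did not pass the test in either comparison, and the transketolase TKL2 was at or near background, at 5.60, 5.54 and 5.54 in AAC and 5.27, 5.26 and 5.63 in AAP (adjusted p = 0.0001 without AAP replicate 3). TEF2, read by a probe set shared with near-identical TEF1, was 12.33, 12.41 and 12.38 in AAC and 12.32, 12.26 and 12.32 in AAP (log2 difference without AAP replicate 3 of 0.08, adjusted p = 0.16, and negative under quantile normalization).

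HES1, which encodes an oxysterol-binding protein of sterol transport, had the largest difference of any S. cerevisiae gene. Its signal was 9.24, 9.19 and 9.27 log2 units in AAC, against 5.55, 5.54 and 9.24 in AAP, and AAP replicates 1 and 2 were at background. It was at least 12.7-fold higher in AAC than in those 2 arrays (log2 difference 3.69 ± 0.08, SE, limma adjusted p = 1.2e-13), and the difference was 2.46 with AAP replicate 3 included (adjusted p = 0.046). NC was at 5.53 on average, as low as AAP replicates 1 and 2. Of the 7 measured oxysterol-binding protein genes 2 passed the test without AAP replicate 3, near the share of 28.1% over all probe sets. The other was SWH1 (log2 difference 0.28, limma adjusted p = 0.0023). HES1 alone passed with AAP replicate 3 included, beside 3.97% of all probe sets.

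**Figure D2:**
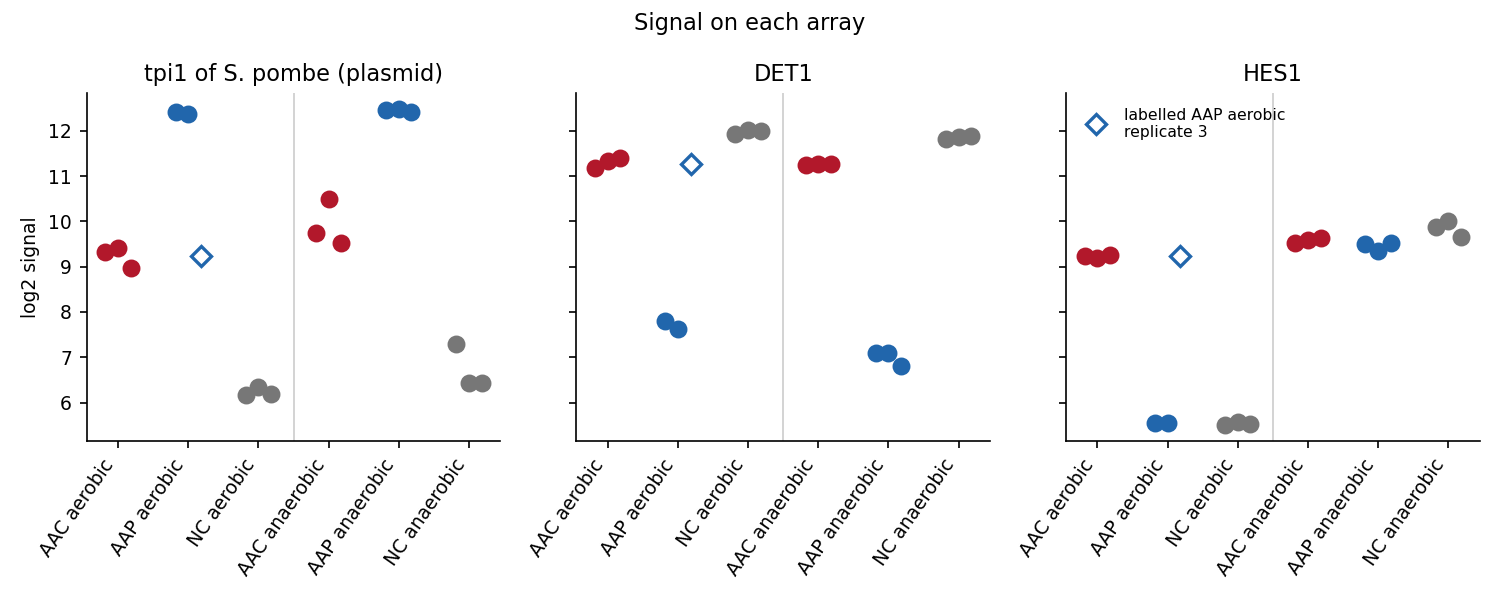
Log2 signal on each of the 18 arrays for S. pombe tpi1, DET1 and HES1, with AAC in red, AAP in blue and NC in grey, and aerobic groups left of anaerobic ones. Each point is 1 array and the open diamond is the array labelled AAP aerobic replicate 3, which read 9.24, 11.28 and 9.24 log2 units, while AAP aerobic replicates 1 and 2 read 12.42 and 12.38, 7.80 and 7.61, and 5.55 and 5.54.

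With all arrays as labelled, limma called 218 of 5498 probe sets at an adjusted p under 0.05 (3.97%), of which 131 were higher in AAC (2.38%) and 87 lower (1.58%). Only 5 of them differed at least 2-fold, all higher in AAC, and 1165 probe sets had an unadjusted p under 0.05. When the array labelled AAP aerobic replicate 3 was left out, 1546 were called (28.1%), 685 higher in AAC (12.5%) and 861 lower (15.7%), 36 and 4 of them at least 2-fold. All 218 calls made with that array were also made without it, in the same direction. With the replicate number as a block, the counts were 140 with all arrays and 1419 without AAP replicate 3. Whether the replicate number marks a shared batch is not known, and the arrays' deviations matched it best only for replicate 3. The count with all arrays ranged from 5 to 36 when any array other than AAP replicate 3 was left out (5 without AAP replicate 1, 5 without AAP replicate 2, 36, 7 and 34 without AAC replicates 1, 2 and 3), and none was called in a fit to only the 6 arrays, where 707 had an unadjusted p under 0.05.

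Of the 218 probe sets called with all arrays, 198 had AAC and AAP arrays that did not overlap, beside 940 of all 5498 tested. AAP replicate 3 was often close to AAC in these too. YRO2, a membrane protein gene induced by acid stress, read 9.32, 9.52 and 9.43 log2 units in AAC, against 7.42, 7.63 and 8.96 in AAP (log2 difference 1.42, limma adjusted p = 0.023, and 1.90 without AAP replicate 3). AGX1, alanine:glyoxylate aminotransferase, read 8.54, 8.53 and 8.24 in AAC and 6.95, 6.96 and 8.20 in AAP (difference 1.07, adjusted p = 0.027). In both genes AAP replicate 3 lay under the lowest AAC array and nearer to AAC than to the other AAP arrays. PDH1, a gene of propionate metabolism, read 8.14, 8.09 and 7.88 in AAC, against 7.12, 6.96 and 7.44 in AAP (difference 0.86, adjusted p = 0.0011), and here AAP replicate 3 lay nearer to the other AAP arrays. The same held for YBL100W-A, a Ty retrotransposon gene read by a probe set shared among many copies, at 9.76, 9.78 and 10.52 in AAC and 7.40, 7.93 and 8.29 in AAP (difference 2.15, adjusted p = 0.034). The other large rises among the 198 without overlap were those of the cell wall mannoprotein TIP1 (0.81) and NCA3 of mitochondrial organisation (0.79). The mitochondrial chaperone HSP78 (0.72), the succinate dehydrogenase subunits SDH1 (0.76) and SDH3 (0.70), and the cell surface protease YPS1 (0.66) followed. Called probe sets whose arrays overlap are left out of this ranking of rises and falls. Falls among the 198 were smaller, and the 10 largest lay between -0.34 and -0.42. They included ribose-5-phosphate ketol-isomerase RKI1 (-0.42), the ribosome assembly factors ALB1 (-0.42) and BRX1 (-0.39), and the nicotinamide methyltransferase NNT1 (-0.41). The small nucleolar RNP protein SNU13 (-0.38) and spermidine synthase SPE3 (-0.34) were also among them. YPL199C (-0.41), YCR087C-A (-0.39), YCR043C (-0.35) and YCR090C (-0.34) also fell. With the replicate block, DET1, HES1, SDH3, RKI1, YCR087C-A and SPE3 no longer passed with all arrays (limma adjusted p = 0.053, 0.055, 0.051, 0.055, 0.053 and 0.056), and all 6 passed without AAP replicate 3.

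Without AAP replicate 3, the largest rises after HES1, DET1 and YBL100W-A included YGP1, YRO2, PHO5, GSC2, SNZ1 and YET2. YGP1, a secreted glycoprotein of nutrient limitation, read 9.48, 9.48 and 9.53 log2 units in AAC, against 7.49 and 7.51 in AAP replicates 1 and 2 and 9.55 in AAP replicate 3 (3.98-fold without replicate 3, log2 difference 1.99 ± 0.08, SE, limma adjusted p = 6.3e-10, and adjusted p = 0.052 with it). GSC2, a subunit of glucan synthase, read 9.26, 9.19 and 9.75 in AAC and 7.84, 7.68 and 9.59 in AAP (3.11-fold, adjusted p = 3.9e-07, and 0.094 with AAP replicate 3). SNZ1 of vitamin B6 synthesis read 8.70, 8.32 and 8.44 in AAC and 6.71, 7.12 and 8.54 in AAP (2.98-fold, adjusted p = 4.2e-07, and 0.064 with AAP replicate 3). AAP replicate 3 was inside the AAC range for GSC2 and SNZ1 and just above it for YGP1. YET2, a homolog of the human BAP31 protein of the endoplasmic reticulum, followed the same pattern (2.91-fold, adjusted p = 3.5e-05).

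The largest falls were those of TIR3, ZPS1, HXT7, FSH1 and HXT4. TIR3, a mannoprotein known from hypoxic cells, read 5.83, 5.60 and 5.64 log2 units in AAC, against 7.01, 7.51 and 5.64 in AAP. The AAC values were near background, which was 5.58, 5.55 and 5.54 on those arrays. TIR3 was 2.97-fold lower in AAC than in AAP replicates 1 and 2 (log2 difference -1.57 ± 0.14, SE, limma adjusted p = 1.5e-06, and 0.068 with AAP replicate 3). ZPS1, a zinc-regulated cell surface protein, was 7.88, 7.67 and 7.34 in AAC and 9.91, 8.40 and 7.51 in AAP, where even AAP replicates 1 and 2 differed by over 1 unit (adjusted p = 0.007, and 0.21 with AAP replicate 3). The hexose transporters HXT7, read by a probe set shared with near-identical HXT6, and HXT4 fell by 1.26 and 0.86, and the serine hydrolase FSH1 fell by 1.07. Adenine deaminase AAH1 fell by 0.74 without and by 0.53 with AAP replicate 3 (adjusted p = 1.9e-05 and 0.04). IMD4, an enzyme of guanine nucleotide synthesis, TOS6, SRP40 and URA1 fell by 0.67 to 0.72. With AAP replicate 3 included, AAH1 was the only one of these 10 genes that passed the test.

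A run of neighbouring genes on chromosome XI was higher in AAC as a block. From GPM1 (YKL152C), phosphoglycerate mutase, to VPH2 (YKL119C), an assembly factor of the vacuolar proton pump, all 29 measured genes had a positive difference, and 28 passed the test without AAP replicate 3, the exception being RMA1, whose signal of 5.82, 5.94 and 5.73 in AAC was near background. The median log2 difference was 0.80, with a range of 0.15 to 1.17, beside a median of -0.02 over all tested probe sets. The 15 measured genes before the run had a median of 0.02, with 4 higher and 3 lower, and the 15 after it a median of -0.06, with 3 higher and 2 lower. With all arrays 13 of the 29 passed and the median was 0.53. The run was singled out after its values were seen, so its counts are a description.

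The run holds SDH1 and SDH3, both of succinate dehydrogenase, and the mitochondrial ribosomal protein gene MRPL31, beside genes of other tasks. MRP8, also in the run, is named like such a gene but is not known to encode a ribosomal protein. MCR1, MYO3 and RPT1 are given as examples chosen after their values were seen. MCR1, the mitochondrial NADH-cytochrome b5 reductase, read 10.78, 10.71 and 10.67 log2 units in AAC, against 9.58, 9.52 and 10.68 in AAP. MYO3, a type I myosin, read 7.66, 7.64 and 7.75 in AAC, against 6.66, 6.70 and 7.66 in AAP. RPT1, an ATPase of the proteasome, read 10.45, 10.40 and 10.42 in AAC, against 9.72, 9.70 and 10.36 in AAP. In each of them AAP replicate 3 had the AAC level, and over the run its median lay 0.78 above that of AAP replicates 1 and 2. The mean of AAC exceeded that of NC by a median of 0.75, while the mean of AAP replicates 1 and 2 differed from that of NC by a median of -0.01. In the anaerobic cultures, which share no array with the aerobic ones, all 29 genes were higher in AAC than in AAP (median 0.66, range 0.29 to 1.45). Runs of neighbours called in 1 direction spanned 17 and 11 genes here, on either side of RMA1, and at most 5 genes elsewhere without AAP replicate 3, and 29 genes here and at most 4 elsewhere in anaerobic culture. DNA copy number of this stretch was not measured.

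**Figure D3:**
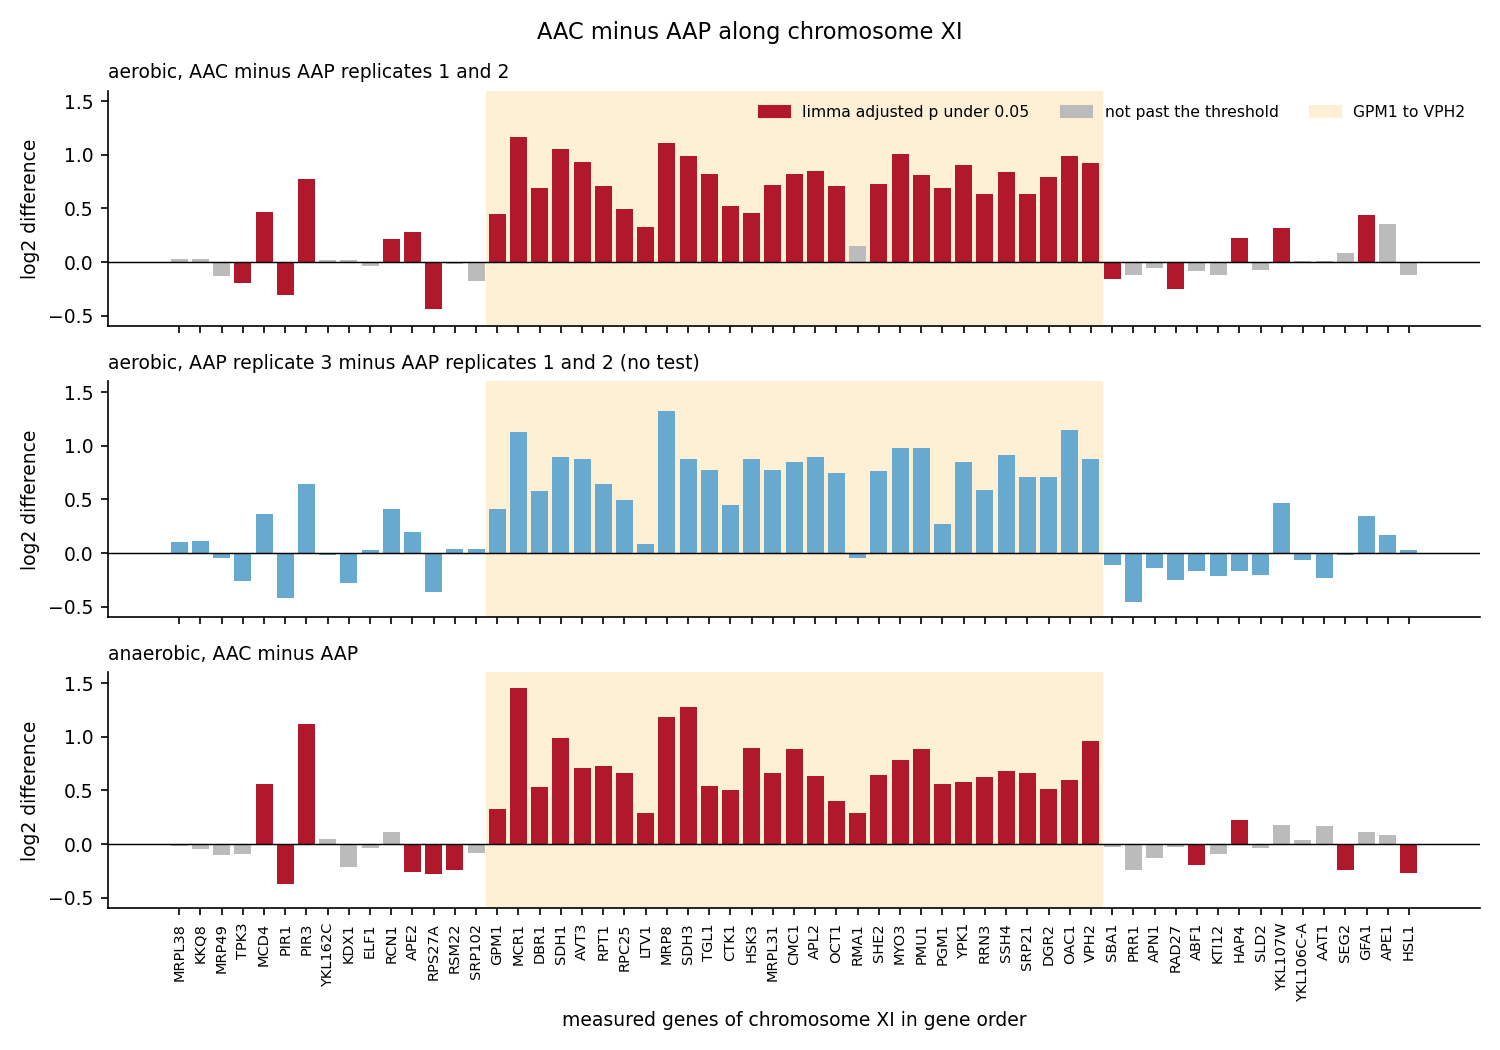
Bars are log2 differences of the 29 measured genes from GPM1 to VPH2 (shaded) and of 15 measured neighbours on each side, in gene order along chromosome XI. The top panel is AAC minus AAP replicates 1 and 2 in aerobic culture, the middle panel the array labelled AAP aerobic replicate 3 minus AAP replicates 1 and 2, and the bottom panel AAC minus AAP in anaerobic culture. Red bars passed limma's threshold, and all 29 shaded bars of the top and bottom panels are above 0 with medians of 0.80 and 0.66.

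Some genes of protein folding in the endoplasmic reticulum were higher in AAC. PDI1, protein disulfide isomerase, read 11.09, 11.14 and 11.22 log2 units in AAC, against 10.92, 10.79 and 10.93 in AAP, without overlap (log2 difference 0.27, limma adjusted p = 0.031, and 0.30, adjusted p = 0.003, without AAP replicate 3). ERO1, the oxidase that recharges Pdi1, read 9.44, 9.65 and 9.73 in AAC and 9.31, 8.56 and 9.70 in AAP, and KAR2, the main chaperone of the lumen, 11.26, 11.31 and 11.44 in AAC and 11.18, 10.72 and 11.31 in AAP. In both genes AAP replicate 1 was close to AAC and AAP replicate 2 was the lowest array by far. ERO1 and KAR2 passed the test without AAP replicate 3 (0.67, adjusted p = 0.0044, and 0.39, adjusted p = 0.0076) and not with it (adjusted p = 0.22 and 0.16).

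Counted by group without AAP replicate 3, 3 of 9 chaperone and cochaperone genes were higher in AAC (KAR2, LHS1 and SIL1, only KAR2 with the replicate block, and none in a fit to only the AAC and AAP arrays) and none lower, with a median of 0.14. Of 7 disulfide genes 2 were higher (PDI1 and ERO1). Of 15 genes listed for the unfolded protein response and degradation of misfolded proteins 1 was higher and 1 lower. The higher one was RCN1 (0.21), a regulator of calcineurin and not a gene of these 2 tasks. HAC1, the transcription factor of that response, read 10.47, 10.43 and 10.41 in AAC and 10.07, 10.25 and 9.68 in AAP, so AAP replicate 3 was here the lowest array and not near AAC (log2 difference 0.28, limma adjusted p = 0.085 without it, and 0.44, adjusted p = 0.069 with it). Translocation and signal peptide processing had 1 of 21 genes higher, SRP21 of the chromosome XI run, and 5 lower, among them the signal recognition particle genes SRP54 (-0.34) and SRP14 (-0.24) and the signal peptidase subunit SPC1 (-0.27), with 3 lower under the replicate block. Of 19 glycosylation genes 2 were lower, OST6 (-0.29) and ALG5 (-0.26), and of 32 genes of transport from the endoplasmic reticulum to the Golgi 2 were higher, EMP46 and ERV29, and 1 lower, SEC22 (-0.38), the 2 rises being lost under the block. Over all probe sets 12.5% were higher and 15.7% lower without that array. With all arrays the calls in these lists were PDI1, higher, and SPC1 and SRP14, lower, and the falls of both were lost under the block.

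Of 11 measured protease genes of leader processing and the vacuole 4 were higher in AAC with all arrays (3 with the replicate block) and 6 without AAP replicate 3, and none was lower. The shares over all probe sets higher in AAC were 2.38% and 12.5%. The cell surface yapsins YPS1 and YPS3, the vacuolar protease B gene PRB1 and the vacuolar protease A gene PEP4 made up the 4. PRB1 read 8.63, 8.66 and 8.62 log2 units in AAC, against 8.11, 7.97 and 8.38 in AAP (log2 difference 0.48, limma adjusted p = 0.015), and YPS1 8.22, 8.29 and 8.37 in AAC, against 7.48, 7.37 and 8.04 in AAP (0.66, adjusted p = 0.015). For both, AAP replicate 3 lay between the other AAP arrays and AAC. PEP4 did not pass with the replicate block and all arrays (adjusted p = 0.058).

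Among 27 genes of the heat shock and stress response, 16 were higher in AAC and 2 lower without AAP replicate 3 (median 0.28), beside 12.5% of all probe sets higher and 15.7% lower. With all arrays 3 were higher and none lower, beside 2.38% and 1.58% of all probe sets. DDR48, a DNA damage-responsive gene, read 9.11, 9.10 and 8.96 log2 units in AAC and 7.99, 7.86 and 8.98 in AAP (log2 difference 1.13, limma adjusted p = 1.3e-07 without AAP replicate 3). DDR2 and HSP30, a stress-induced membrane protein gene, rose by 1.10 and 1.18. HSP12, a small membrane-stabilising protein, read 9.37, 9.29 and 9.03 in AAC and 8.49, 8.71 and 9.12 in AAP (0.63, adjusted p = 0.0007, and 0.066 with AAP replicate 3). In DDR48 and HSP12 AAP replicate 3 lay inside the AAC range. Peroxide and superoxide defence had 6 of 21 genes higher without AAP replicate 3, with small differences (GRX1 0.33, TRX3 0.32, SOD2 0.21), and 1 of 21 with it.

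Cell wall protein genes went both ways, with 9 of 27 higher and 6 lower without AAP replicate 3 (3 lower under the replicate block), beside 12.5% and 15.7% of all probe sets. With all arrays 5 were higher (3 under the block) and none lower, beside 2.38% and 1.58% of all probe sets. TIP1 read 9.84, 9.72 and 9.61 log2 units in AAC and 8.64, 8.53 and 9.59 in AAP, PST1 rose by 0.74 and the exo-glucanase EXG1 fell by 0.43. Mating genes likewise had 8 of 19 higher and 5 lower without AAP replicate 3, and 1 higher and 1 lower with it. The a-factor gene MFA1 read 9.26, 9.25 and 9.55 in AAC and 8.18, 8.27 and 9.70 in AAP, the a-agglutinin genes AGA2 and AGA1 rose by 0.90 and 0.82, and the endonuclease gene HO fell by 0.61 (all without AAP replicate 3). By MFA1, STE2 and the alpha factor genes, both strains had the profile of MATa cells. STE2, the receptor for alpha factor, read 9.43, 9.53 and 9.43 in AAC and 9.55, 9.78 and 9.35 in AAP. The alpha factor genes MF(ALPHA)1 and MF(ALPHA)2 were at background on all 6 arrays. The other markers set for mating type, MFA2, BAR1, STE3 and SAG1, are not given here. The MF(ALPHA)1 probe set, named for the gene of the leader on the plasmid, read 5.27, 5.28 and 5.25 in AAC and 5.23, 5.15 and 5.26 in AAP.

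Of 24 measured genes of the phosphate regulon 12 were higher in AAC without AAP replicate 3 and none lower (median 0.22), and 1 was higher with it, beside 12.5% and 2.38% of all probe sets higher. In a fit to only the AAC and AAP arrays with the replicate block, 3 were higher without AAP replicate 3. PHO5, the secreted acid phosphatase, read 8.48, 7.76 and 8.73 log2 units in AAC, against 6.03, 6.89 and 8.54 in AAP (log2 difference 1.86 ± 0.23, SE, limma adjusted p = 3.6e-05, and 0.12 with AAP replicate 3). PHO84, the high-affinity phosphate transporter, read 7.86, 7.01 and 8.12 in AAC, against 5.99, 6.52 and 7.83 in AAP (1.41 ± 0.23, adjusted p = 0.00041, and 0.15 with AAP replicate 3). AAC replicate 2 was the lowest AAC array and AAP replicate 2 the higher of the first 2 AAP arrays in both genes.

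Iron genes as a set were highest on the array labelled replicate 3 in both AAC and AAP. The array labelled AAP replicate 3 read like AAC at most called probe sets, so strain and replicate cannot be told apart for it. FIT2 and FIT3, cell wall mannoproteins that hold iron siderophores, read 8.01, 7.66 and 9.99 and 7.42, 7.15 and 9.10 log2 units in AAC, and 7.18, 7.24 and 10.14 and 6.67, 6.68 and 8.99 in AAP. Over the 18 iron uptake genes the median deviation from the mean of the 6 arrays was -0.20, -0.36 and 0.65 in AAC and -0.40, -0.16 and 0.65 in AAP. Both arrays labelled replicate 3 were thus higher by this median than all 4 others. Without AAP replicate 3 the median difference over the list was 0.20, and 2 of 18 were called higher in AAC, near the 12.5% of all probe sets. These were FIT3 (limma adjusted p = 0.037) and the heme oxygenase HMX1 (adjusted p = 0.00021). FIT3 was lost under the replicate block (adjusted p = 0.06), and with all arrays no iron gene was called. Zinc-responsive genes had none of 12 higher and 5 lower without AAP replicate 3 (3 under the block), beside 15.7% of all probe sets lower. Among the 5 were ZPS1, given above, and the transporter ZRT1, which fell by 0.59. With all arrays no zinc gene was called. Over the 12 zinc genes the median deviation was -0.05, 0.01 and -0.02 in AAC and 0.18, 0.01 and -0.18 in AAP. By this median AAP replicate 2 was near AAC, and only AAP replicate 1 stood above it.

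**Figure D4:**
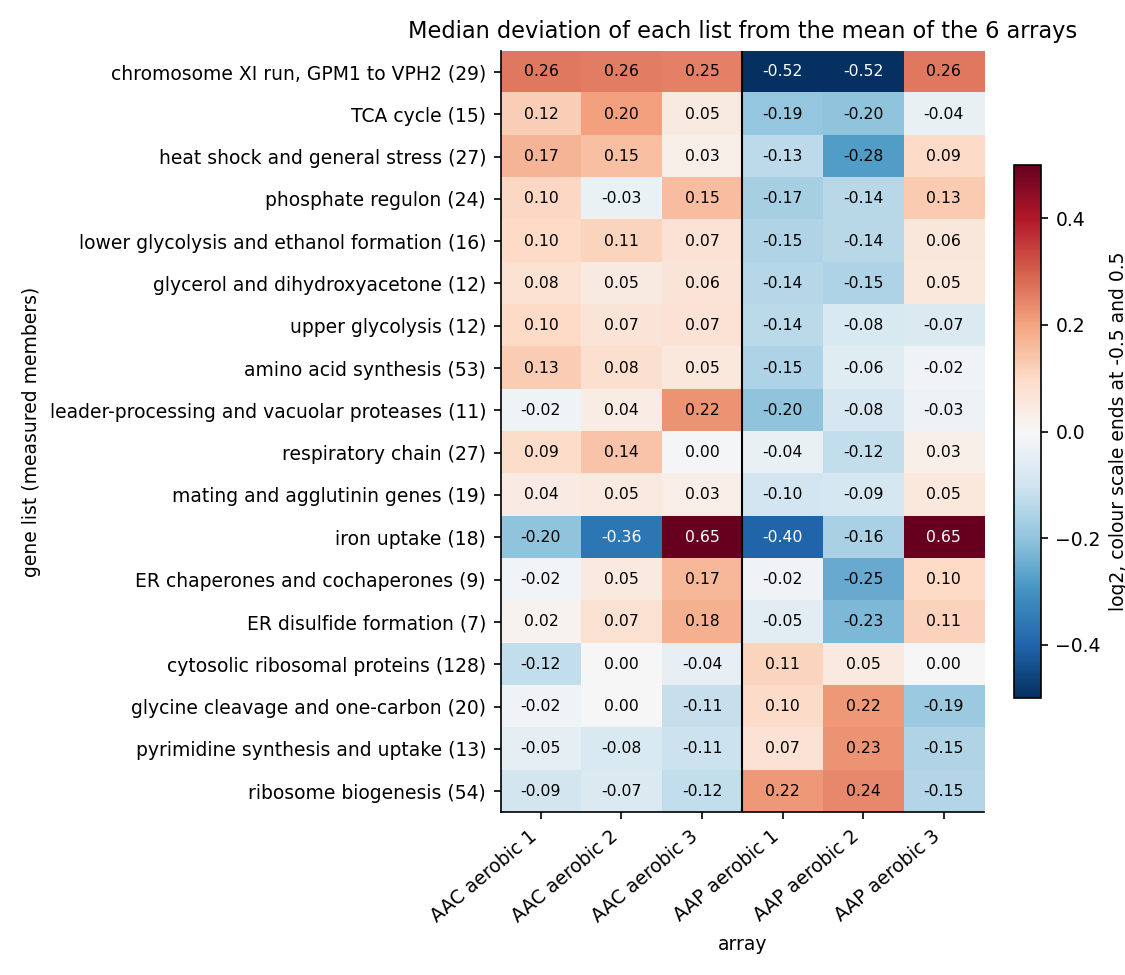
Each cell is the median, over the measured genes of a list, of the log2 deviation on 1 aerobic array from the mean of the 6 arrays, with AAC left and AAP right of the line and the number of genes in brackets. The chromosome XI run is at 0.26, 0.26 and 0.25 in AAC and -0.52, -0.52 and 0.26 in AAP, ribosome biogenesis at -0.09, -0.07 and -0.12 in AAC and 0.22, 0.24 and -0.15 in AAP, and iron uptake is at 0.65 on replicate 3 of both strains.

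In central carbon metabolism more glycolytic genes were called higher in AAC than lower. Without AAP replicate 3, where 12.5% of all probe sets were higher, 11 of 16 genes of lower glycolysis and ethanol formation were higher and none lower (10 of 15 outside the chromosome XI run), and 7 of 12 of upper glycolysis were higher and 1 lower. These counts of higher genes were 8 of 16 and 6 of 12 under quantile normalization, and 12 of 16 and 7 of 12 with median centring. With all arrays 3 and 2 were higher, 1 and 1 under the replicate block, beside 2.38% of all probe sets higher with all arrays. TDH1, the minor glyceraldehyde-3-phosphate dehydrogenase, read 11.64, 11.64 and 11.64 log2 units in AAC, against 10.45, 10.40 and 11.66 in AAP (log2 difference 1.21 ± 0.05, SE, limma adjusted p = 6.3e-10). Glucokinase GLK1 was 9.33, 9.21 and 9.09 in AAC and 8.52, 8.35 and 8.78 in AAP, without overlap (0.66, adjusted p = 0.0031 with all arrays). The phosphoglycerate mutase homolog GPM2 rose by 1.19, the alcohol dehydrogenase ADH5 by 1.00 and the enolase ENO1 by 0.70.

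Side branches of glycolysis are given first without AAP replicate 3. Of 12 genes of glycerol and dihydroxyacetone 6 were higher and none lower, among them the glycerol-3-phosphate phosphatase GPP2 (0.77), the glycerol dehydrogenase homolog GCY1 (0.73) and the mitochondrial glycerol-3-phosphate dehydrogenase GUT2 (0.62). DAK2, a dihydroxyacetone kinase gene, was at background in both strains, at 5.17, 5.18 and 5.16 log2 units in AAC and 5.12, 5.11 and 5.18 in AAP. Trehalose and glycogen had 6 of 18 genes higher and 1 lower, among them phosphoglucomutase PGM1 of the chromosome XI run at 0.69 and the trehalase NTH1 at 0.49. In the pentose phosphate pathway 3 of 13 were higher, among them the transaldolase NQM1 (1.18) and glucose-6-phosphate dehydrogenase ZWF1 (0.25), and RKI1 was lower. Hexose transporters and sensors had 2 of 18 higher and 4 lower, near the 12.5% and 15.7% of all probe sets, and 9 of them lay above background on average. With all arrays 1 glycerol gene was higher (none under the replicate block) and 3 trehalose and glycogen genes were higher. In the pentose phosphate pathway 1 gene was higher and 1 lower, and no hexose transporter was called. Over all probe sets 2.38% were higher and 1.58% lower with all arrays.

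Citric acid cycle genes that passed the test were all higher in AAC. Of 15 measured genes 11 were higher in AAC without AAP replicate 3 and none lower (median 0.35), and 6 were higher with all arrays (5 with the replicate block). KGD1, a subunit of alpha-ketoglutarate dehydrogenase, read 8.58, 8.72 and 8.66 log2 units in AAC, against 8.27, 8.25 and 8.26 in AAP (log2 difference 0.39, limma adjusted p = 0.0028 with all arrays), a gene in which AAP replicate 3 had the level of the other AAP arrays. Citrate synthase CIT1 read 10.93, 10.90 and 10.80 in AAC and 10.17, 10.14 and 10.67 in AAP (0.55, adjusted p = 0.032). Glyoxylate, gluconeogenesis and beta oxidation had 10 of 19 higher and none lower without AAP replicate 3, with peroxisomal citrate synthase CIT2 at 0.51, and 2 higher with it (1 with the block). Over all probe sets 12.5% were higher without that array and 2.38% with it.

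Of 27 respiratory chain genes 8 were higher in AAC without AAP replicate 3 and none lower, and 6 of 25 outside the chromosome XI run, which holds SDH1 and SDH3. With all arrays 4 were higher (3 with the replicate block). The internal and external NADH dehydrogenases NDI1 and NDE1 passed with all arrays too (log2 differences 0.53 and 0.38, limma adjusted p = 0.0026 and 0.025). NDI1 read 8.59, 8.79 and 8.43 log2 units in AAC, against 8.09, 8.08 and 8.04 in AAP, and AAP replicate 3 was the lowest of the 6 arrays. ATP synthase had 4 of 17 higher without AAP replicate 3, with STF2 and STF1, which stabilise its inhibitor, at 0.78 and 0.58, and none with it. The list of mitochondrial ribosomal protein genes, which includes MRP8 by its name, had 3 of 66 higher and 4 lower without AAP replicate 3. Of the 3, MRP8 and MRPL31 lie in the run. With all arrays no gene of that list was called. Over all probe sets 12.5% were higher and 15.7% lower without AAP replicate 3, above both shares of that list. With all arrays 2.38% of all probe sets were higher.

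Amino acid synthesis genes that passed the test were mostly higher in AAC. Of 53 measured genes 25 were higher and 2 lower without AAP replicate 3 (median 0.17), and 7 were higher with all arrays, with 3 under the replicate block, beside 12.5% and 2.38% of all probe sets. BAT2, the cytosolic branched-chain aminotransferase, read 9.13, 9.09 and 9.12 log2 units in AAC, against 7.99, 7.97 and 9.09 in AAP (log2 difference 1.14, limma adjusted p = 2.1e-09). SER3 of serine synthesis, HIS4 of histidine synthesis and CPA1 of arginine synthesis rose by 0.58, 0.49 and 0.54. Glycine cleavage and one-carbon genes had 1 of 20 higher and 10 lower without AAP replicate 3 (median -0.22), where 15.7% of all probe sets were lower, and 1 higher and none lower with it (median -0.11). SHM2, cytosolic serine hydroxymethyltransferase, read 10.34, 10.34 and 10.03 in AAC, against 10.78, 10.82 and 9.82 in AAP (-0.56, adjusted p = 0.00046, and 0.51 with AAP replicate 3). Pyrimidine synthesis had 2 of 13 higher and 7 lower without AAP replicate 3 (median -0.30), and 2 lower with it (none under the block). URA3, orotidine-5′-phosphate decarboxylase, was 7.90, 7.93 and 7.83 in AAC and 8.43, 8.50 and 7.91 in AAP, and URA1, URA7 and URA5 fell by 0.67, 0.46 and 0.37.

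Of 54 measured ribosome biogenesis factors 47 were lower in AAC and none higher without AAP replicate 3 (median -0.33), and 8 were lower with all arrays, beside 15.7% and 1.58% of all probe sets. NSR1, a nucleolar protein of rRNA processing, read 9.15, 9.22 and 9.01 log2 units in AAC, against 9.76, 9.79 and 8.83 in AAP (log2 difference -0.65 ± 0.07, SE, limma adjusted p = 8.8e-06, and 0.29 with AAP replicate 3). NOP1, the fibrillarin that methylates rRNA, read 9.79, 9.77 and 9.52 in AAC and 10.22, 10.36 and 9.53 in AAP (-0.60, adjusted p = 6.7e-05). AAP replicate 3 lay below the AAC arrays for NSR1 and at the lowest of them for NOP1, and over the list its median deviation was -0.15, against -0.09, -0.07 and -0.12 in AAC. Cytosolic ribosomal protein genes had 52 of 128 lower and none higher without AAP replicate 3 (median -0.12), and 8 lower with it. RPS26B read 10.72, 10.79 and 10.72 in AAC and 11.08, 11.07 and 10.80 in AAP, and passed with all arrays (-0.24, adjusted p = 0.041), as did RPL26A (-0.27, adjusted p = 0.01) and RPS27A (-0.32, adjusted p = 0.044). These probe sets read genes with near-identical copies, which they may not separate. The proteasome had 1 of 33 genes higher, RPT1 of the chromosome XI run, and 3 lower without AAP replicate 3, and RPT1 alone with it.

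With all arrays no gene of the lipid, hypoxic, thiamine and biotin lists was called. Ergosterol synthesis had 1 of 25 genes higher, ERG28, and 1 lower, ERG6, without AAP replicate 3, and fatty acid synthesis had none of 11 higher and 2 lower, the sphingolipid hydroxylase SUR2 (-0.45) and the elongase ELO2 (-0.31). Of 17 DAN/TIR and other hypoxic genes none was higher and 4 were lower, TIR3, the heme synthesis enzyme HEM13 (-0.53), ANB1 (-0.36) and the fumarate reductase FRD1 (-0.17). Thiamine genes had 4 of 14 higher, and biotin genes 1 of 5 higher and 1 lower. Over all probe sets 12.5% were higher and 15.7% lower without that array.

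The strains were compared without oxygen to ask whether these differences depend on it, on 6 arrays that the aerobic comparison does not use. There AAC and AAP differed at 1814 probe sets (33.0%), 733 higher in AAC (13.3%) and 1081 lower (19.7%), or 906 and 844 when arrays were centred on their medians. Of the 685 probe sets higher in aerobic AAC without AAP replicate 3, 616 had the same sign and 376 were called higher in anaerobic culture, and 10 were called lower. Of the 861 lower ones, 814 had the same sign, 401 were called lower and 5 were called higher. Across the tested probe sets the 2 differences correlated at r = 0.667, as a description over genes measured with the same probe sets. Ribosome biogenesis was lower in both conditions (46 of 54 in anaerobic culture, median -0.37, beside -0.03 over all tested probe sets).

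The difference between the 2 conditions was itself tested, and 286 probe sets passed without AAP replicate 3 (5.20%), 179 with a more positive and 107 with a more negative aerobic difference, or 144 and 154 with median centring. With all arrays 195 passed. HES1 had an aerobic difference of 3.69 log2 units and an anaerobic one of 0.13, since in anaerobic culture AAC read 9.52, 9.59 and 9.64 and AAP 9.51, 9.35 and 9.52. PHO5 and PHO84 had aerobic differences of 1.86 and 1.41, and anaerobic ones of -0.02 and -0.44, and neither gene exceeded 6.41 on any anaerobic array of AAC or AAP. FLO11, a flocculin, and ULI1 separated the strains more without oxygen (0.14 and 0.69 in aerobic, 1.99 and 2.50 in anaerobic culture). By list, 7 of 15 citric acid cycle genes, 6 of 24 phosphate genes and 13 of 53 amino acid synthesis genes had a more positive aerobic difference by this test, while 12 of 27 respiratory chain genes had a less positive one: 24 of 27 were higher in anaerobic AAC (median 0.81), against 8 in aerobic AAC. The 3′ over 5′ signal of WBP1, another sign of RNA quality, was 1.52, 1.42 and 1.06 log2 units in anaerobic AAC and 1.67, 2.01 and 1.86 in anaerobic AAP, without overlap. That of ACT1 overlapped, at 0.736, 0.705 and 0.536 in anaerobic AAC and 0.857, 1.12 and 0.727 in anaerobic AAP. The part of RNA quality in the anaerobic differences was not tested.

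**Figure D5:**
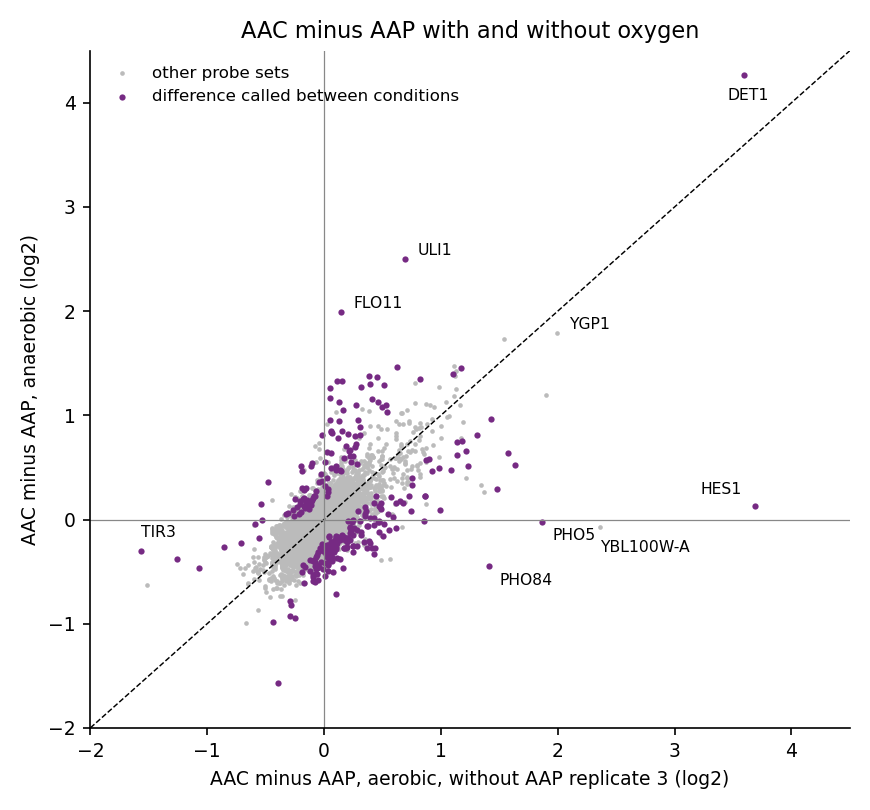
Each point is 1 of 5498 probe sets, with the log2 difference AAC minus AAP in aerobic culture without AAP replicate 3 on the x axis and in anaerobic culture on the y axis. Purple points are the 286 whose difference changed with oxygen by limma, and the dashed line marks equal differences. DET1 lies near the line at 3.60 and 4.27, HES1 far right of it at 3.69 and 0.13, and FLO11 and ULI1 above it.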

How the data were processed

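From each culture 250 ng of RNA was used for biotin labelling and an Affymetrix Yeast Genome 2.0 array, per the labels' protocols. The deposited values are read as log2 from their range of 4.85 to 12.8, and the submitters' processing notes name PLIER and R 2.10.1. The sources used here give neither the log base nor the background correction or normalization.

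The 5498 S. cerevisiae probe sets with 1 gene (5449 genes) were tested with limma 3.58.1 in R 4.3.3 (lmFit, eBayes), with 1 mean for each of 6 groups, two-sided, adjusted by Benjamini and Hochberg over all 5498, with a threshold of 0.05. Residual and prior degrees of freedom were 12 and 3.10 with 18 arrays, and 11 and 3.64 with 17. The spread of the 2 AAP arrays left in the second fit is taken from all groups. The number of arrays limits precision. Background was each array's 95th percentile of 1746 S. pombe probe sets (tpi1 left out), 5.58 overall. A fold against a group at background is a lower bound, computed with values raised to that level. Gene names came from the platform table, with 12 symbols updated. Gene order came from RefSeq, and no coordinates are given because no build is named for the array.

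The labels do not say that replicate numbers mark a shared batch. Deviations from the group means of same-numbered AAC and AAP aerobic arrays correlated at 0.168, 0.249 and 0.456, all above 0.1, so block values are given. Those deviations include the array labelled AAP aerobic replicate 3. AAC replicate 1 correlated more with AAP replicate 2 (0.261), and AAC replicate 2 more with AAP replicate 1 (0.459). They therefore do not establish that same-numbered arrays were paired. In anaerobic culture they were -0.21, -0.117 and -0.284.

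Genes were named by rule: the 10 largest rises and falls in each fit among called probe sets whose arrays do not overlap, up to 4 genes with the smallest p of each list, the 3 largest each way in the interaction, and a fixed set of plasmid, host and stress genes. The lists, the rule and the comparison were chosen with earlier results of these data known. Lists are described by counts and medians over 1 probe set per gene. The limma calls were tried on simulated data with known changes in single genes. That simulation drew each gene independently and had no array that stood apart, and it did not test the list counts or medians. Alternatives were other normalizations, a filter on dim probe sets, a trend on coding length removed, trend and robust eBayes, the replicate block, fits restricted to the compared groups, and leaving out each array.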

Additional observations from a re-analysis of the deposited data

Results flagged for a closer look

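The difference between AAC and AAP changed with oxygen at 286 probe sets by limma's test of the interaction with the array labelled AAP aerobic replicate 3 left out, and the 3 largest each way are given here as the aerobic minus the anaerobic log2 difference. HES1 changed by 3.57 (adjusted p = 1.4e-11), PHO5 by 1.88 (adjusted p = 0.0024) and PHO84 by 1.85 (adjusted p = 0.0027). FLO11 changed by -1.85 (adjusted p = 3.2e-06), ULI1 by -1.81 (adjusted p = 5.9e-09) and TIR3 by -1.26 (adjusted p = 0.0011). With all arrays the values were 2.33 for HES1, 1.19 for PHO5, 1.33 for PHO84, -1.93 for FLO11, -2.02 for ULI1 and -0.72 for TIR3, and of these only FLO11 and ULI1 passed the test.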

How the results depend on the processing

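The count of probe sets that differ between aerobic AAC and AAP turned on single arrays. With all arrays it was 218, between 5 and 1546 when 1 array was left out, 0 in a fit to only the 6 arrays, 1 in that fit with the replicate block, 140 with the block and all groups, and 5 at 2-fold or more. Quantile normalization, median centring, the filter on dim probe sets, trend and robust eBayes and the length trend gave 204 to 265. Without AAP replicate 3 the count was 1546, between 871 and 1401 when a further array was left out, 872 with the replicate block in only the arrays of AAC and AAP, 40 at 2-fold or more, 1518 without the chromosome XI run (an alternative chosen after seeing the data), and 1419 to 1775 otherwise. For anaerobic AAC against AAP it was 1814, and 1165 to 1678 with 1 array left out. The interaction had 195 calls with all arrays, 69 to 424 with 1 array left out, 81 with the length trend removed, 92 in a fit to only the groups compared and 41 in that fit with the block. Without AAP replicate 3 it had 286, 111 to 452 with 1 further array left out, and 95 with the block in only the groups compared. The tpi1 difference of -2.11 ranged from -3.17 to -1.58. Of the differences of 184 named genes, 1 reversed: TEF2 without AAP replicate 3 was 0.08, and -0.18 with quantile normalization (adjusted p = 0.0063). With the replicate block, 21 of the 184 lost their call with all arrays and 9 without AAP replicate 3, and none gained one. Without AAP replicate 3 the block also left 1 amino acid synthesis gene and no trehalose or glycogen gene lower, and made 1 hypoxic gene higher. A limit of every value is that 3 arrays, or 2, stand for a strain.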
